A study of Homo sapiens with 30 samples.

Results

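The proteasome mRNAs are those of the 50 protein-coding genes, of 20046 in the annotation, whose symbol starts with PSMA, PSMB, PSMC, PSMD, PSME, PSMF or PSMG followed by a digit. The symbols alone chose them, so subunits with other symbols, such as ADRM1 and SEM1, were left out. The rule gave 8 alpha and 7 constitutive beta subunits of the 20S core, 4 inducible or tissue-specific beta subunits, 6 ATPase and 11 non-ATPase subunits of the 19S regulatory particle, 3 chaperones of 19S assembly, 4 activators, 1 inhibitor and 4 chaperones of 20S assembly. It also took in 2 genes that are none of these. PSME3IP1 codes for a partner protein of the activator PSME3, and PSMC3IP codes for a factor of meiotic recombination.

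LARP6 is an RNA-binding protein with a folded La-module, which is flanked by a disordered N-terminal region (NTR) and a C-terminal region (CTR). The study asked which of these parts determine where LARP6 sits on RNA in living cells, by iCLIP, in which ultraviolet light joins a protein to the RNA it touches. The cells were U-87 MG, an established human glioblastoma line. They carried a stable doxycycline-inducible transgene of myc-tagged LARP6, either full-length (FL) or lacking the NTR (ΔNTR), the CTR (ΔCTR), the La-module (ΔLa-module) or both NTR and La-module (ΔNTD), and parental cells without a transgene were the control. Every sample, parental ones included, is labelled as having had 60 ng/mL doxycycline for 24 h. U-87 MG cells also make LARP6 of their own, which lacks the myc tag. Each of the 5 peak lists merges peaks that were called in each of 3 iCLIP replicates, with parental peaks removed. The score of a peak is its number of crosslinks, summed over the replicates in which it was called, 3 or more for every peak listed. The calling minimum of 3 counts held within each replicate, so a peak of score 3 rests on 1 replicate. A place without a peak can still hold crosslinks. Each of the 6 lines has 1 long-RNA library, called PE150 here, with 25027075 to 28692476 counts in genes. No spread between cultures can be had from either kind of file, so values are given with 95% intervals that cover counting error only, and no difference was tested. The intervals treat genes, peaks or units of score as independent, which peaks of 1 gene are not, so they can be too narrow.

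The proteasome is the protease that degrades ubiquitin-tagged proteins. Its 20S core is a barrel of alpha and beta rings with the catalytic sites on the inside of the beta rings. The 19S particle caps the barrel, where its non-ATPase subunits receive and deubiquitinate substrates and its ATPase ring unfolds them. Activators can replace the 19S cap, and dedicated chaperones order the assembly of core and cap. The genes are expressed in nearly all cells and are known to be adjusted together by the transcription factor NFE2L1.

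The strongest sites were few, and their sequences are shown because most of the comparisons below turn on them. Each is 30 nt of GRCh38 around the centre of the strongest peak at the site, 5′ to 3′ on the strand of the mRNA, with the longest uninterrupted run of C and T in capitals. They were read from the reference genome. A site is a set of peaks of the 3 long lists that overlap on 1 strand, and its score in a list is the sum of its peaks there.
PSMA7 coding sequence, exon 4 of 7, chr20:62139117-62139146, minus strand: gtgggtttcgactttgatggcaCTCCTagg
PSMD3 coding sequence, exon 9 of 12, chr17:39995423-39995452, plus strand: ggtgtacgcatgatcagCCTCTCCTattcc
PSMA4 3'UTR, chr15:78548957-78548986, plus strand: tattactcatttggggcaccaTTTCagtgt
PSMD1 3'UTR, chr2:231172601-231172630, plus strand: tgccgagaCCTgctattcaatgcatgtatc
PSMD11 3'UTR, chr17:32481164-32481193, plus strand: tgaCTTTTTattctgtttgtactgaaccaa
PSME3 3'UTR, chr17:42842022-42842051, plus strand: atgaggttactgTTTCTTTCCTCTgtgggg
PSME3IP1 3'UTR, first site, chr16:57153557-57153586, minus strand: ggaaattattttatgtttgTTTTTgaaata
PSME3IP1 3'UTR, second site, chr16:57153526-57153555, minus strand: aggatttagtttaagaTTCTaaattttaga
These windows had no common run: the longest C and T run was 12 nt in PSME3, 8 nt in PSMD3 and 3 nt in PSMD1. C and T made up 63.3% of the PSMD3 and PSMD11 windows, 60% of the PSMA4 and PSME3 windows and 56.7% of the PSMD1 window. The share was 53.3% in the PSMA7 window and the first PSME3IP1 window, and 46.7% in the second PSME3IP1 window. Over all proteasome peaks, the 31 nt around the centre held 51.3% C and T in FL (SD 13.2 over 67 peaks), 53.9% in ΔNTR (SD 13.1, 70 peaks) and 53.4% in ΔCTR (SD 11.5, 71 peaks). For the peaks of all protein-coding genes the values were 52.5% (SD 12.4), 52.8% (SD 12.4) and 52% (SD 11.8). For the 3'UTR peaks alone it was 51.3% (SD 11.3, 24 peaks), 60.2% (SD 15.5, 23 peaks) and 56.9% (SD 11.9, 24 peaks), against 54.2%, 54.5% and 53.5% over all genes. These means were not tested against each other, since peaks of 1 gene are not independent.

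LARP6 peaks were found on 35 of the 50 genes in at least 1 list, and 17 genes held peaks in all of FL, ΔNTR and ΔCTR. In FL, 28 genes had 67 peaks with a summed score of 407. In ΔNTR, 22 genes had 70 peaks with a summed score of 330, and in ΔCTR 31 genes had 71 peaks with a summed score of 502. The whole lists summed to 102788, 92958 and 118751, so the proteasome genes held 0.396%, 0.355% and 0.423% of the score. For scale, the 50 genes held 168657 of the 26981003 PE150 counts of protein-coding genes in the FL line. The counts of 35 and 17 genes over several lists were not made for all genes.

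Of the 48 proteasome genes with at least 10 PE150 counts, 28 had an FL peak (58.3%, Wilson interval 44.3 to 71.2%), against 36.1% of the 12523 protein-coding genes past the same minimum. The share in ΔNTR was 45.8% (32.6 to 59.7%) against 36.8%, and in ΔCTR 64.6% (50.4 to 76.6%) against 38.6%. Proteasome mRNAs are abundant, with a median of 3225 counts in the FL library against 832 for all protein-coding genes past the minimum, and they are short, with a median canonical mRNA of 1494 nt against 3415 nt. Among all genes between the quartiles of the proteasome counts (1583 to 4110), a comparison added after the values were seen, 62% had an FL peak, 63.7% a ΔNTR peak and 67.4% a ΔCTR peak. Of the 24 proteasome genes in that band, 16, 13 and 20 had a peak. At like abundance, the share of proteasome genes with a peak was thus near that of all genes in FL. It was larger in ΔCTR and smaller in ΔNTR, and none of these gaps was tested. Over all proteasome genes rather than the band, 16, 16 and 20 had a peak above score 3 in FL, ΔNTR and ΔCTR, so FL and ΔNTR were then equal. The band was set on counts alone and does not match mRNA length.

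Neither the ΔLa-module list nor the ΔNTD list held a peak on any proteasome gene. These lists are short, with 636 and 291 peaks, and covered 3.45% and 1.85% of protein-coding genes past 10 counts. At the share of FL, where 67 of 14334 peaks (0.467%) lay on proteasome genes, 2.97 and 1.36 peaks would fall there. The exact binomial intervals of the 2 zero shares reached 0.578% and 1.26%, so a lower share than in FL was not detectable at this number of peaks.

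**Figure D1:**
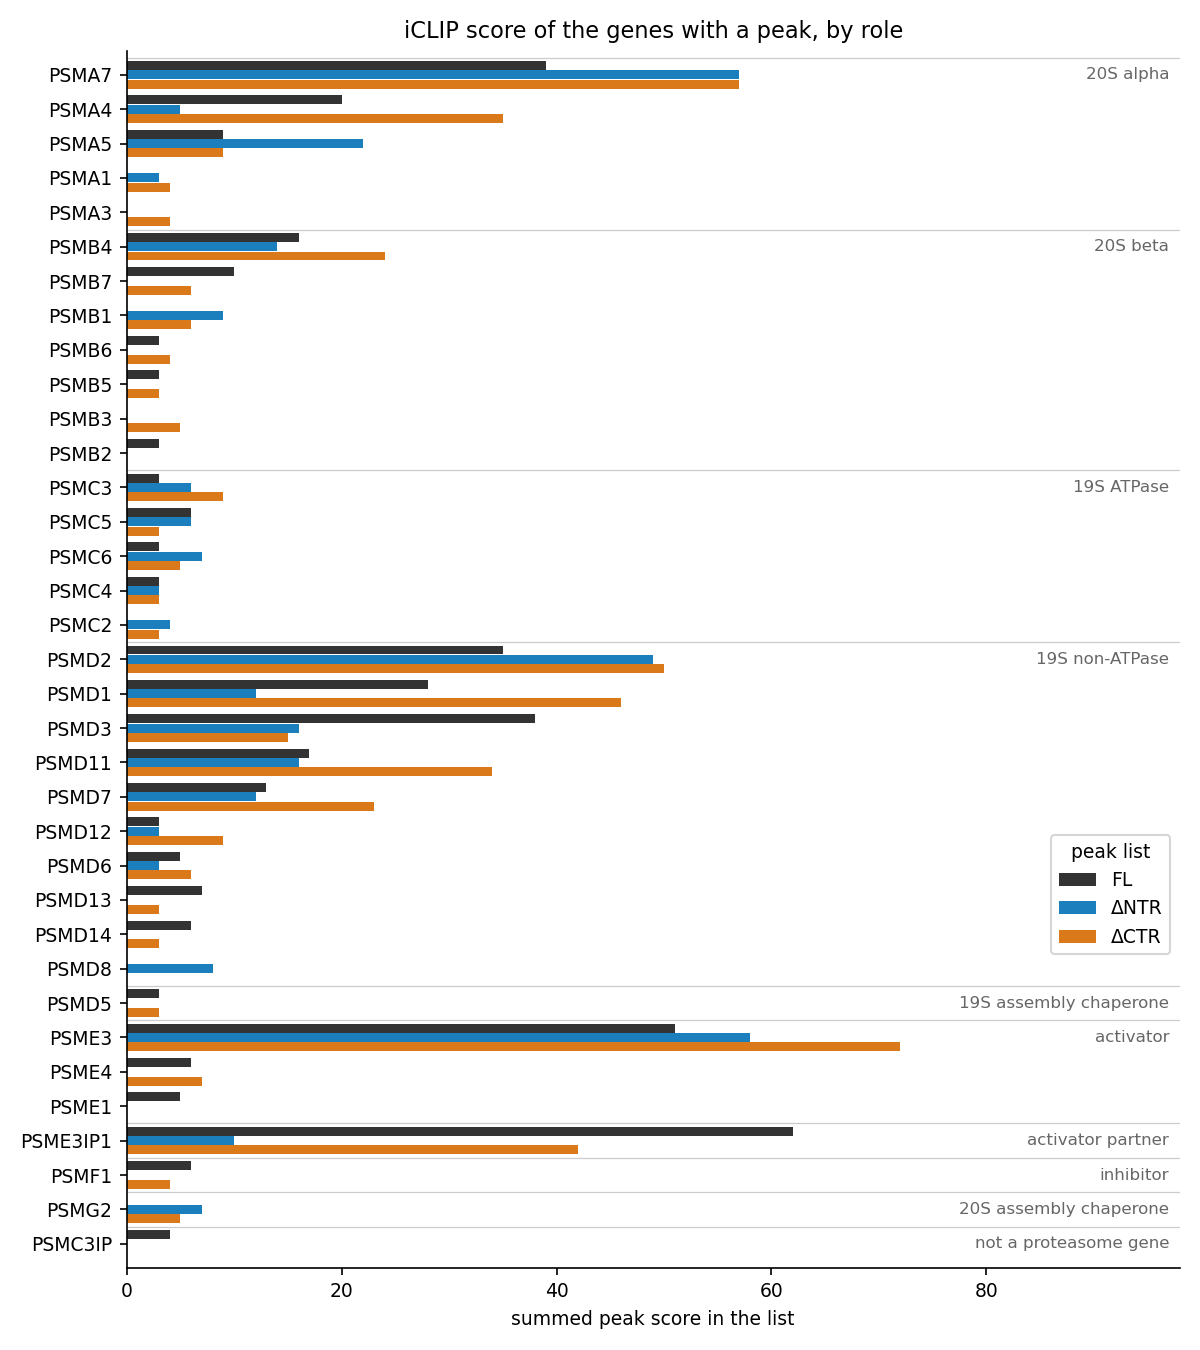
Summed peak score (horizontal axis) of the 35 genes with a peak, grouped by role, in the FL, ΔNTR and ΔCTR lists (bars). PSME3 has the longest bar of ΔNTR and ΔCTR, with 58 and 72, while the bar of PSME3IP1 is 62 in FL and 10 in ΔNTR.

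A few genes carried most of the score. The 5 genes of highest score held 55.3%, 61.2% and 53.2% of the score on proteasome genes in FL, ΔNTR and ΔCTR, and PSME3, PSMA7 and PSMD2 were among these 5 in every list. Across the 48 genes, the rank correlation of score with PE150 count was 0.59, 0.55 and 0.64 in FL, ΔNTR and ΔCTR, against 0.62, 0.65 and 0.65 across all 12523 genes. These genes share their libraries and are not replicates, so the values are descriptions.

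The alpha subunits form the outer rings of the core and gate its entry. PSMA7 had the strongest site of all members in ΔNTR and ΔCTR, in the coding sequence, with a score of 26, 38 and 46 in FL, ΔNTR and ΔCTR. Its gene total was 39, 57 and 57. PSMA4 had 1 dominant site just past its stop codon, centred 30 nt into a long 3'UTR, which scored 20, 5 and 32 in FL, ΔNTR and ΔCTR. PSMA5 was the reverse, with a gene total of 9, 22 and 9 in FL, ΔNTR and ΔCTR. Its sites at the 5′ end, at chr1:109426349-109426386 and chr1:109426393-109426433, lay in the 5'UTR. The site nearer the start codon had no FL peak, 8 in ΔNTR and 5 in ΔCTR, and the one near the mRNA start had 4, 5 and 4. PSMA1 and PSMA3 had no peak above 4, and PSMA2, PSMA6 and the testis form PSMA8 had none.

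The beta subunits hold the catalytic sites, on PSMB5, PSMB6 and PSMB7. These 3 had peaks of no more than 4 each, with gene totals of 3, 3 and 10 in FL, and no peak in ΔNTR. PSMB4, a non-catalytic subunit, had the highest beta score, 16 of 35 in FL, 14 of 23 in ΔNTR and 24 of 48 in ΔCTR. It had 2 coding-sequence sites found in all 3 lists, in exons 3 and 5 of 7. They scored 9 and 7 in FL, 4 and 7 in ΔNTR, and 13 and 11 in ΔCTR. Another coding site, in exon 2, had a peak of 3 in ΔNTR alone. PSMB1 had 9 in ΔNTR and 6 in ΔCTR but no FL peak, although its FL level of 135 CPM per kb (CPM, the count scaled to library size, per kb of canonical mRNA) was more than that of PSMB5, at 76.4. None of the 4 inducible or tissue-specific beta genes had a peak. PSMB8, PSMB9 and PSMB10, the catalytic subunits of the interferon-induced immunoproteasome, had 790, 206 and 40 counts in the FL library, and the thymus form PSMB11 had 1.

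The 6 ATPases, PSMC1 to PSMC6, unfold substrates at the base of the cap. They carried little score for their abundance, with 0.586 score units per 1000 PE150 counts in FL, 1.24 in ΔNTR and 0.953 in ΔCTR, over 25593, 21031 and 24139 counts. The FL value was 2.41 for all genes of the symbol rule and 0.71 for the subunits of the chaperonin CCT, so it was not particular to the ATPases. The 5 FL peaks of the ATPases all had the minimum score of 3. The only site in all 3 lists was in the coding sequence of PSMC3, with 3, 6 and 9 in FL, ΔNTR and ΔCTR. PSMC1 had no peak in any list at 6159 FL counts.

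Non-ATPase subunits of the cap had the most peaks of any role, 27, 27 and 30 in FL, ΔNTR and ΔCTR, with summed scores of 152, 119 and 189. PSMD2, the scaffold subunit that docks substrate shuttles, was the most abundant of all with 26596 FL counts, and its 7, 11 and 9 peaks lay along the coding sequence, except for 1 intronic ΔNTR peak, with none in the 3'UTR. Its score of 35, 49 and 50 came to only 1.32 per 1000 counts in FL, 2.2 in ΔNTR and 2 in ΔCTR. PSMD1, the other large scaffold, had a pair of adjoining 3'UTR sites 93 and 138 nt past the stop codon. The first scored 16, 6 and 18 in FL, ΔNTR and ΔCTR, and the second 6, 6 and 16. PSMD3, a lid subunit, had its main site in exon 9 of the coding sequence, at chr17:39995420-39995525, with 31, 6 and 11 in FL, ΔNTR and ΔCTR. In PSMD11, another lid subunit, the main 3'UTR site scored 10, 5 and 23. PSMD4, the ubiquitin receptor, had no peak in any list at 3576 FL counts, and PSMD14, the deubiquitinase, had 2 FL peaks of 3.

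At the start codon of PSMD7, a lid subunit, FL, ΔNTR and ΔCTR peaks overlapped, with scores of 10, 9 and 5. The FL peak was the highest of the proteasome 5'UTR peaks, and the window around its centre is given with the start codon in capitals.
PSMD7 start codon, chr16:74296890-74296919, plus strand: ggcctggcgagcggggtgtgtcgcgATGcc
PSMD7 also had a 3'UTR site of 12 at chr16:74305921-74305962, which had a peak in ΔCTR and in neither of the other lists.

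Activators open the core without the 19S cap. PSME3, which forms the nuclear activator ring, had 10 FL, 13 ΔNTR and 10 ΔCTR peaks, with scores of 51, 58 and 72, and nearly all lay in its 3'UTR. Its strongest site, centred 461 nt past the stop codon over the C and T run of 12 nt, scored 10, 9 and 26 in FL, ΔNTR and ΔCTR. The interferon-inducible PSME1 had 1 FL peak of 5 in its 5'UTR and PSME2 had none. PSME4, an activator abundant in testis, had 6 in FL and 7 in ΔCTR, and PSMF1, the inhibitor, had 6 and 4. Chaperones of assembly were barely bound, with a score of 3 on PSMD5 in FL and in ΔCTR, and with 7 in ΔNTR and 5 in ΔCTR on PSMG2. The partner gene PSME3IP1 had the highest total in FL. Its first 3'UTR site scored 27 in FL and 20 in ΔCTR and had no ΔNTR peak, and its second scored 32, 22 and 5 in FL, ΔCTR and ΔNTR.

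**Figure D2:**
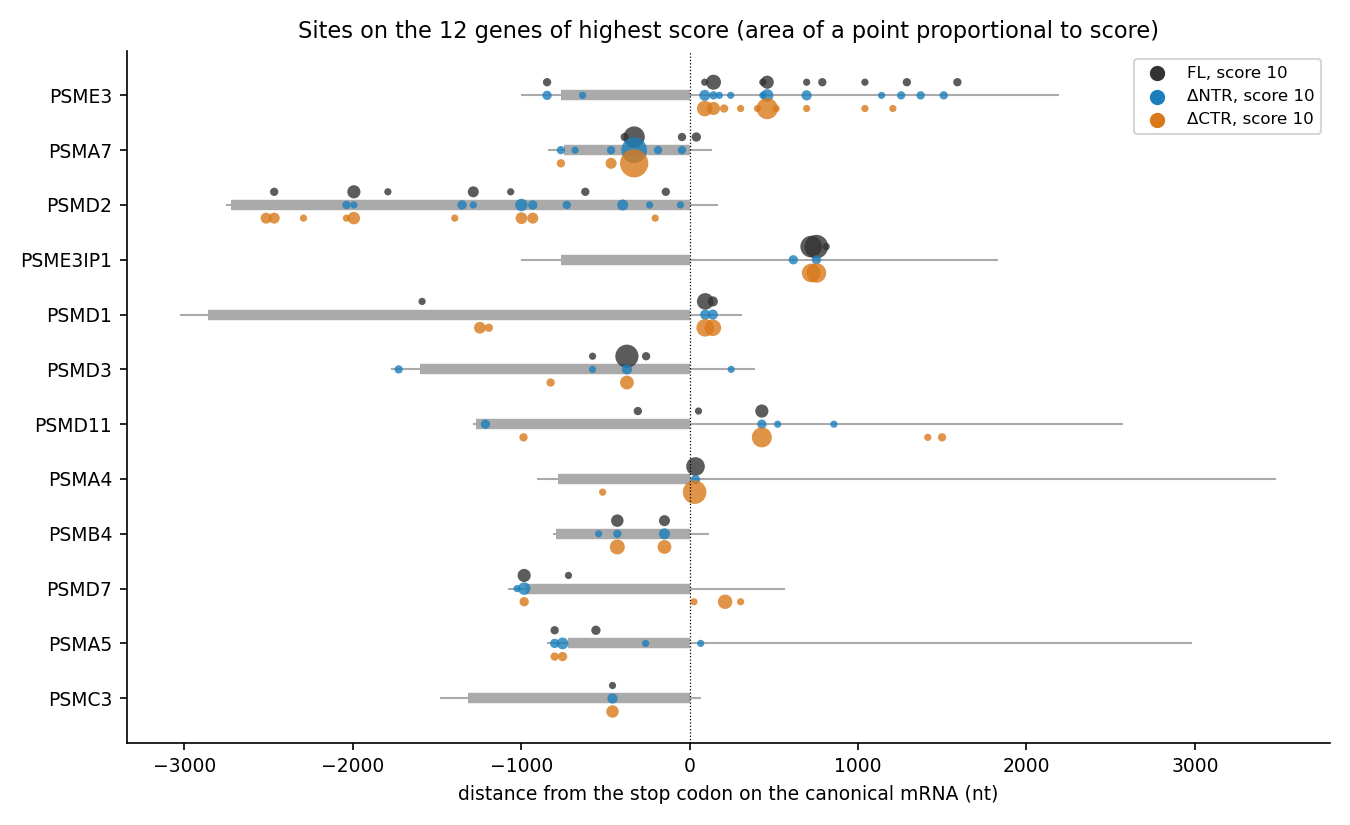
Sites on the 12 genes of highest summed score, by distance from the stop codon on the canonical mRNA (horizontal axis, nt), with UTRs as thin and coding sequence as thick lines and the area of each point proportional to the score in FL, ΔNTR or ΔCTR. PSMD2 sites run along the coding sequence, while PSME3, PSMD1, PSMA4, PSMD11 and PSME3IP1 have their largest points past the stop codon.

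Coding sequence held more of the proteasome peaks than any other region when a peak in several annotated transcripts was counted as coding first. For FL it was 50.7% (39.1 to 62.3%), for ΔNTR 50% (38.6 to 61.4%) and for ΔCTR 56.3% (44.8 to 67.3%), against 37.6%, 38.1% and 38.3% over all protein-coding genes. The 3'UTR share was 35.8%, 32.9% and 33.8%, against 49.3%, 51.2% and 52.5%. On canonical transcripts alone the coding share was 54.8%, 51.5% and 58%, against 41%, 40.5% and 40.9%. With 3'UTR counted before coding sequence, it was 29.9%, 32.9% and 28.2%, against 27.1%, 27.5% and 27.1%, so the distance from other genes nearly closed under that order. Proteasome mRNAs past 10 counts are 50% coding sequence and 45.6% 3'UTR by canonical length, against 45.5% and 49.5% for all genes. In the 3'UTR, the peaks lay a median of 424 nt past the stop codon in FL, 432 nt in ΔNTR and 413 nt in ΔCTR, against 838, 790 and 866 nt over all genes, whose mRNAs are longer.

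Peaks in the first 50 nt of the canonical mRNA, a window chosen after the values were seen, were found on PSMA5 and PSME1 in FL, on PSMA1, PSMA5, PSMB1, PSMD3 and PSMD7 in ΔNTR, and on PSMA1 and PSMA5 in ΔCTR. Their scores were 3 to 5. That is 2, 5 and 2 of 48 genes, or 4.17% (1.15 to 14%), 10.4% (4.53 to 22.2%) and 4.17% (1.15 to 14%), against 1.68%, 1.82% and 1.28% of all genes past 10 counts. For genes in the abundance band the shares were 2.01%, 1.82% and 1.44%. The ΔNTR interval lay above these shares and the other 2 intervals held them. The ΔNTR peaks on PSMA1, PSMB1 and PSMD7 had the minimum score of 3, so each rests on 1 replicate. Those on PSMA5 and PSMD3 scored 5 and 4, and no FL or ΔCTR peak in the window scored under 4. The higher ΔNTR share thus rests on peaks of the minimum score.

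Of the 67 FL peaks, 24 (35.8%, 25.4 to 47.8%) overlapped a ΔNTR peak by at least 1 nt and 25 (37.3%, 26.7 to 49.3%) a ΔCTR peak, against 35.2% and 37.7% over all protein-coding genes. ΔNTR and ΔCTR peaks overlapped each other more often than on other mRNAs, although both intervals held the value of all genes. A ΔCTR peak overlapped 41.4% of the ΔNTR peaks (30.6 to 53.1%), against 31.6%, and a ΔNTR peak overlapped 42.3% of the ΔCTR peaks (31.5 to 53.8%), against 33.9%. Higher peaks were shared more often. All 12 FL peaks of at least 10 overlapped a ΔCTR peak and 11 of them a ΔNTR peak, while 5 of the 31 FL peaks with the minimum score of 3 overlapped a ΔNTR peak and 5 a ΔCTR peak. Over all genes, 93.2% and 88.3% of the FL peaks of at least 10 overlapped ΔCTR and ΔNTR peaks, and 18.1% and 17.1% of those of score 3. Of the FL peaks, 55.2% (43.4 to 66.5%) overlapped a peak of neither list, against 51.7% over all genes, and 28.4% (19 to 40.1%) overlapped both, against 24.7%. Merging overlapping peaks, which was not done for all genes, gave 147 sites. Of these, 18 on 13 genes were in all of FL, ΔNTR and ΔCTR, 20 were in 2 lists and 109 in 1. The 109 sites seen once were weak, with a highest score of 5 in FL alone, 7 in ΔNTR alone and 12 in ΔCTR alone.

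High peaks were rarer in ΔNTR. Only 1 of 70 ΔNTR peaks scored at least 10 (1.43%, 0.253 to 7.66%), the PSMA7 coding site, against 12 of 67 in FL (17.9%, 10.6 to 28.7%) and 14 of 71 in ΔCTR (19.7%, 12.1 to 30.4%). Over all protein-coding genes these shares were 7.96% in ΔNTR, 13.2% in FL and 14.6% in ΔCTR. FL had 11 sites that scored 10 or more, of which 10 had a lower score in ΔNTR and 6 a lower score in ΔCTR. Sites picked for a high FL score tend to be lower in any other list, so this count is a description. At the 18 sites of all 3 lists, the summed score was 218, 134 and 275 in FL, ΔNTR and ΔCTR. The ΔNTR score was below that of FL at 11 sites, above it at 5 and equal at 2, whereas the ΔCTR score was below it at 6, above it at 10 and equal at 2. The whole ΔNTR list had a lower total than FL, and its part in these counts was not tested. The same site counts were not made over all genes.

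By region, the lower ΔNTR score of the genes of the symbol rule was in the 3'UTRs. Per 10000 of the list total, 3'UTR score on proteasome genes was 18.4, 11 and 20 in FL, ΔNTR and ΔCTR, and coding score was 17.5, 19.5 and 19.9. The ratio of the ΔNTR to the FL share was 0.597 for 3'UTRs (exact binomial interval 0.464 to 0.763) and 1.11 for coding sequence (0.9 to 1.37). Over all protein-coding genes it was 0.992 (0.98 to 1) and 1.06 (1.04 to 1.07). One gene, which codes for no subunit, decided the 3'UTR value: without PSME3IP1, a comparison added after the values were seen, the ratio was 0.801 (0.606 to 1.06). Without PSMA4 alone it was 0.635 (0.489 to 0.819), and without both it was 0.899 (0.67 to 1.2). Over all regions the ratio was 0.897 (0.773 to 1.04) with PSME3IP1 and 1.03 (0.878 to 1.2) without it. The ΔNTR share was thus no lower than that of FL once PSME3IP1 was left out. For ΔCTR the 3'UTR ratio was 1.09 (0.893 to 1.32) with PSME3IP1 and 1.33 (1.06 to 1.68) without it, against 1.07 (1.06 to 1.08) over all genes.

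**Figure D3:**
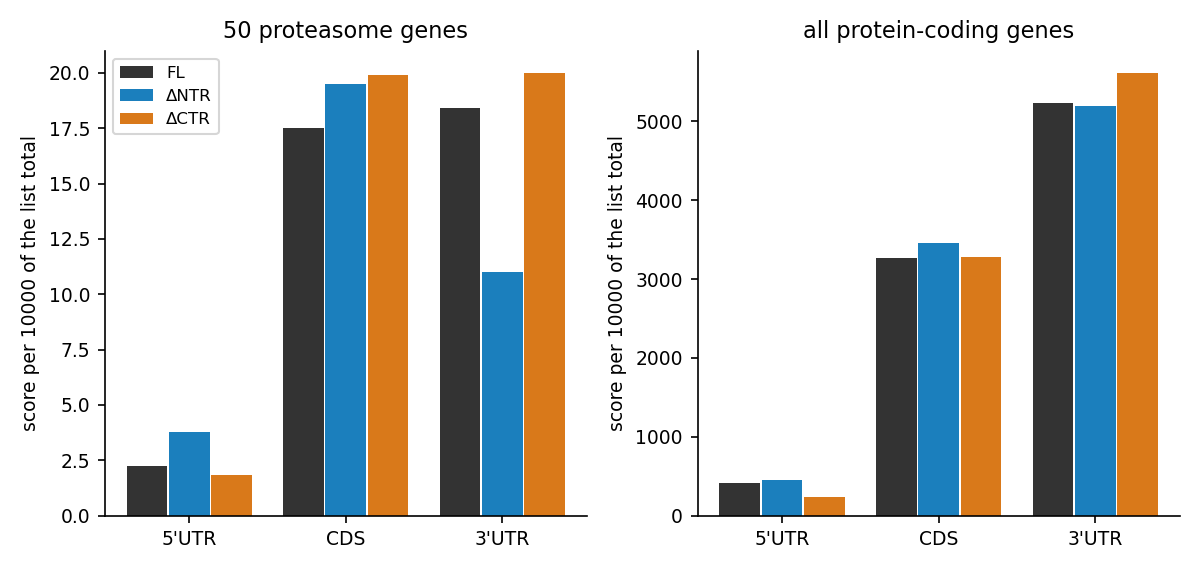
Summed score per 10000 of the list total (vertical axes, scaled separately) in 5'UTR, coding sequence and 3'UTR for the 50 genes of the symbol rule and for all protein-coding genes, in FL, ΔNTR and ΔCTR (bars). The ΔNTR bar for the 3'UTR is 11 against 18.4 in FL on the left, and 5195 against 5235 on the right.

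To set binding against RNA level, each gene's share of its list's score was divided by its input level, where FL and the other list held a score of 20 or more between them. In ΔNTR against FL, 11 proteasome genes could be compared and their median log2 change was 0.10, against 0.01 over 1700 genes. PSME3IP1 (-2.32), PSMA4 (-1.54) and PSMD3 (-1.26) were at least 2-fold lower in ΔNTR, 3 of 11 against 15.8% of all genes, and PSMA5 (1.60) was at least 2-fold higher, 1 of 11 against 14.2%. Without the input correction, the ratio of score shares was 0.178 (0.0815 to 0.35) for PSME3IP1, 0.276 (0.0811 to 0.759) for PSMA4, 0.466 (0.242 to 0.855) for PSMD3 and 2.7 (1.2 to 6.67) for PSMA5. These 4 genes were picked on the same scores, so their ratios are descriptions. A score also counts called peaks alone, so a site without one, such as the first PSME3IP1 site in ΔNTR, enters as 0. Such a site can still have had crosslinks, which the peak lists do not show. PSMD1, at 0.474 (0.219 to 0.962), and PSMA7, at 1.62 (1.06 to 2.49), were within 2-fold after the input correction. The ratios of PSME3, PSMD2, PSMD11, PSMD7 and PSMB4 lay between 0.968 and 1.55.

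In ΔCTR against FL, 10 genes could be compared, with a median of 0.33 against 0.02 over 1855 genes. PSMD3 was 2-fold lower at -1.53, 1 of 10 against 10.2% of all genes, with a ratio of score shares of 0.342 (0.175 to 0.636). No proteasome gene was 2-fold higher, against 11.6%. PSME3IP1 was lower at -0.71, with a ratio of 0.586 (0.387 to 0.882). The other 8 genes lay between 0.32 and 0.75, each with an interval of its ratio that held 1. Both comparisons use the same FL list, so they are not independent of each other. PSMD3 was the gene past 2-fold in both.

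Per unit of RNA, proteasome mRNAs carried less score than protein-coding genes on the whole. In FL they had 2.41 score units per 1000 PE150 counts (exact Poisson interval 2.18 to 2.66) against 3.62 (3.6 to 3.64). In ΔNTR they had 2.32 (2.07 to 2.58) against 3.71, and in ΔCTR 3.12 (2.85 to 3.41) against 4.36. Without PSME3IP1 and PSMC3IP the FL value was 2.07 (1.86 to 2.3), below the ΔNTR value of 2.3 (2.05 to 2.56). Other sets of housekeeping genes, chosen by symbol, also lay below the value of all genes: in FL, 1.1 (1.03 to 1.17) for 86 cytosolic ribosomal protein genes, 0.71 (0.539 to 0.918) for the 8 subunits of the chaperonin CCT and 2.18 (1.96 to 2.43) for 86 nuclear genes of the respiratory chain. Within the proteasome the FL value ran from 19.5 for PSME3IP1, 10.5 for PSMD3, 7.47 for PSME3, 6.1 for PSMA4, 6.03 for PSMC3IP, which had 1 peak of 4, and 5.98 for PSMA7 to 0 for genes without an FL peak. The 5 most abundant of the latter per length in FL were PSMB3 at 153 CPM per kb, PSMB1 at 135, PSMA3 at 111, PSMD4 at 96.6 and PSMD8 at 96.1.

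**Figure D4:**
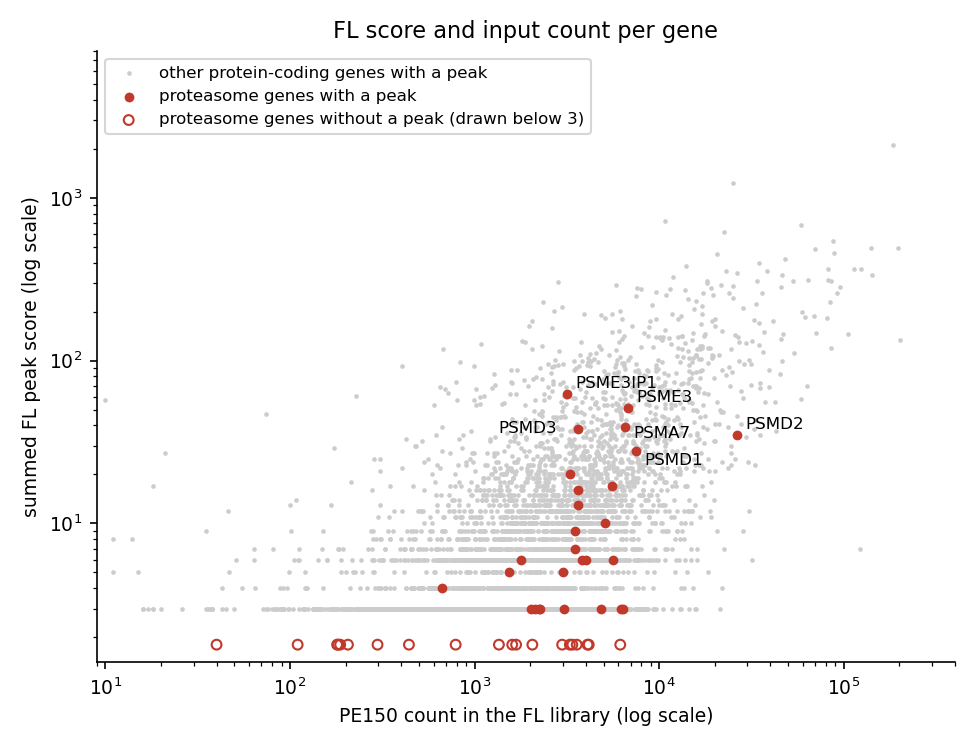
Summed FL peak score against PE150 count in the FL library for protein-coding genes with a peak (grey) and proteasome genes (red), both axes logarithmic, with open circles drawn under the minimum score of 3 for genes without a peak. PSME3IP1 and PSMD3, at 62 and 38, lie above PSMD2, at 35, on fewer counts.

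The RNA levels of proteasome genes differed little among the 6 lines. Of the markers of U-87 MG looked at, VIM, CD44, FN1 and COL1A1 had 20487 to 197572 counts in the FL library, while the astrocyte marker GFAP had 0 to 6 counts over the 6 libraries and was near absent. In bulk RNA, less RNA per cell and fewer cells that make it cannot be told apart. For the 41 of 50 proteasome genes with an average of at least 10 CPM, the highest of the 6 levels was a median of 1.14 times the lowest (range 1.05 to 1.3), against 1.18 for all 9096 protein-coding genes of that level. Constitutive core subunits ran from 242 CPM per kb for PSMA7 to 26.7 for PSMA4 in FL, leaving aside PSMA8 and the genes that share exons with others, and PSMD2 had the highest level of all at 325. Much of that span comes from the division by canonical length, which is 962 nt for PSMA7 and 4378 nt for PSMA4. Their FL counts were 6524 and 3277. Whether the cells make the long canonical form was not examined.

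Levels were lowest in ΔNTR. There the median log2(CPM + 1) difference from parental was -0.11 over the 41 genes, with a range of -0.38 to 0.15, against -0.02 over all 9096 genes, whose quartiles were -0.14 and 0.12. Of the 41 genes, 33 were below parental in ΔNTR, against 55.2% of all genes. The lean was not limited to ΔNTR, since 30, 32, 30 and 25 were below parental in FL, ΔCTR, ΔLa-module and ΔNTD, against 50.5%, 52.2%, 53.8% and 49.1%. In ΔNTR 24 had their lowest level of the 6 libraries there, against 29.6%. The medians of FL, ΔCTR, ΔLa-module and ΔNTD were -0.03, -0.04, -0.03 and -0.02. Each rests on the same parental library, which held the highest level for 15 of the 41 genes, against 26.2% of all genes. By role, the ΔNTR median was -0.20 for the alpha subunits, -0.10 for the beta subunits, -0.10 for the ATPases, -0.13 for the non-ATPases and -0.16 for the activators. The CCT genes had -0.18, the respiratory chain genes -0.10 and the ribosomal protein genes -0.06 in the same comparison, so the CCT genes lay lower than the proteasome genes there.

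PSMA5 had the largest difference. It had 136 CPM in parental and 125, 104, 118, 122 and 134 in FL, ΔNTR, ΔCTR, ΔLa-module and ΔNTD. Its log2 difference in ΔNTR was -0.38 (interval -0.45 to -0.31), while its score there was the highest of the 3 lists. PSMB8, the inducible catalytic subunit, had 30.6 CPM in parental and 28.1, 24.3, 23.8, 24.7 and 25.5 in FL, ΔNTR, ΔCTR, ΔLa-module and ΔNTD. It was below parental in all 5 lines, by -0.32 in ΔNTR (-0.49 to -0.18) and -0.35 in ΔCTR (-0.51 to -0.21). The 5 differences share 1 parental library, and the ratio of FL to parental, 0.919 (0.832 to 1.01), had an interval that held 1. PSMB9, under the minimum of 10 CPM, had 9.29 CPM in parental and 7.34, 7.25, 9.64, 8.38 and 7.09 in the 5 lines, without a common direction. PSMD12, a lid subunit, was above parental in all 5, with 212 CPM in parental and 226, 219, 237, 236 and 245 in the same order of lines, and its largest difference was 0.21 in ΔNTD (0.16 to 0.26). These differences also share the parental library, and the ratio of ΔNTR to parental, 1.03 (0.995 to 1.07), had an interval that held 1. PSMD4 was low in ΔNTR at -0.29 (-0.37 to -0.22), while PSMD3 was the highest there at 0.15 (0.09 to 0.22). PSMC6 reached 0.22 in ΔNTD (0.14 to 0.30), and PSMB4 was at -0.22 there (-0.29 to -0.16).

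Past a difference of 0.32 on the log2 scale, 2 of the 41 genes were lower in ΔNTR, PSMA5 and PSMB8, against 4.82% of all genes, and 1 was lower in ΔCTR, PSMB8, against 1.64%. None was lower in FL, ΔLa-module or ΔNTD, against 1.22%, 3.54% and 4.3%. None was higher in any line, against 1.97%, 8.59%, 3.06%, 4.36% and 5.4% of all genes in FL, ΔNTR, ΔCTR, ΔLa-module and ΔNTD. With 1 library per line, these counts compare libraries.

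**Figure D5:**
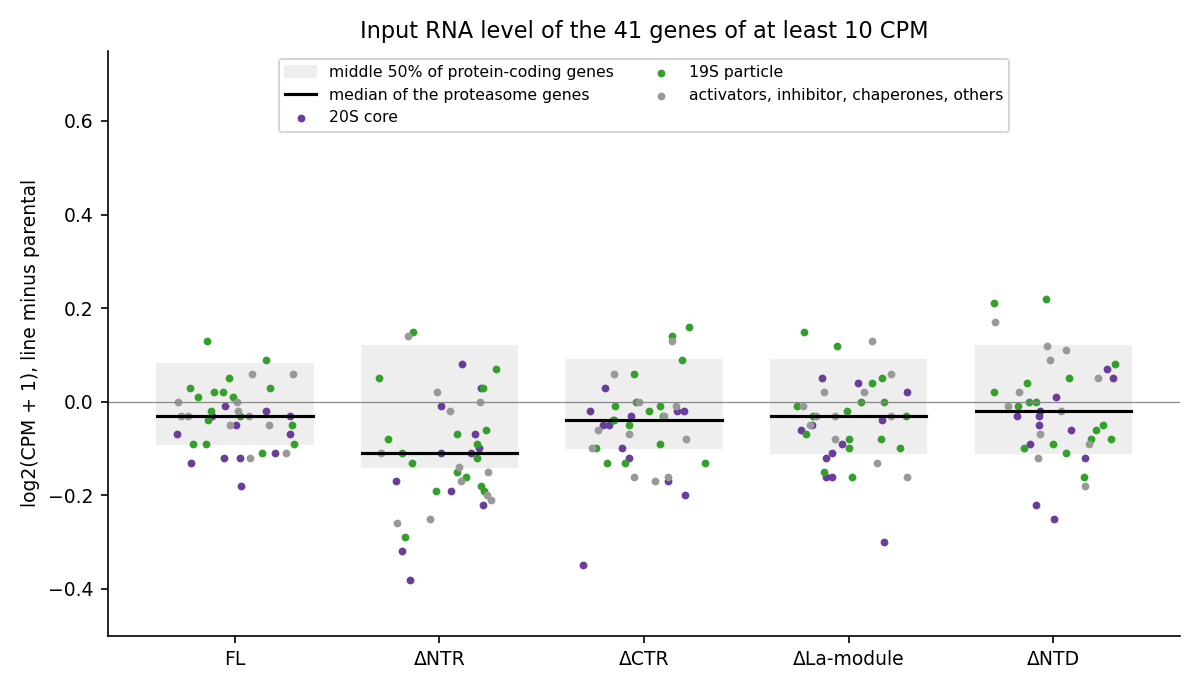
Difference of log2(CPM + 1) from parental (vertical axis) in each line for the 41 genes with an average of at least 10 CPM (points, coloured by role), with their median (black line) and the quartiles of all 9096 protein-coding genes (grey). The ΔNTR median is at -0.11 and the other 4 medians are between -0.04 and -0.02.

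The level of several subunits was uncertain because their exons overlap those of other genes. PSMA2, PSMA6, PSMA1 and PSMB10 share 100%, 81.4%, 67% and 56.1% of their canonical mRNA with an overlapping gene on the same strand, and PSMD9 shares 28.8%. Reads in shared exons count for neither gene, and these genes had 180, 110, 298, 40 and 182 counts in the FL library, against 2983 to 6524 for the other alpha subunits except PSMA8. PSMA8 had 0 counts and PSMB11 at most 1 in every library.

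Of 24 genes for ubiquitin, shuttle factors, associated enzymes and NFE2L1, 16, 14 and 17 had a peak in FL, ΔNTR and ΔCTR, and 1 and 2 in ΔLa-module and ΔNTD. The shares over all genes past 10 counts, given above, were lower, but among genes in the abundance band of the proteasome 62%, 63.7% and 67.4% had a peak. Those with a peak of at least 10 were the shuttle factor RAD23B with a gene score of 44, 16 and 46 in FL, ΔNTR and ΔCTR, the segregase VCP with 41, 61 and 31, the ubiquitin gene UBB with 21, 18 and 8, and the shuttle factor UBQLN1 with 7, 18 and 13. The median level difference of the 24 genes was -0.02 in ΔNTR, against -0.11 for the genes of the symbol rule. Past 0.32 on the log2 scale, 2 of the 24 were higher in ΔNTR, near the 8.59% of all genes, and none was lower in any line. The 2 were NFE2L1 at 0.38 and the ubiquitin receptor ADRM1 at 0.34. NFE2L1 had a level of 243 CPM in parental and 316 in ΔNTR, and a score of 32, 96 and 57 in FL, ΔNTR and ΔCTR over 9, 23 and 13 peaks. Both genes were singled out after their values were seen.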

How the data were processed

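Peak scores and gene counts were used as deposited by the authors. For iCLIP, the authors aligned reads with STAR to GRCh38.p13, removed duplicates by UMI-tools, called peaks in each replicate with Clippy, merged them, summed their scores and took out peaks of parental cells. The deposited counts per gene came from STAR 2.7.10b after Trim Galore 0.6.10, and the reverse-strand column was used. Rows without a gene, 34.4 to 37.8% of reads, were left out.

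Peaks were assigned by their centre and strand to genes of GENCODE 44 (the authors used 42), as CDS, 5'UTR, 3'UTR, ncRNA or intron in this order. Counts were scaled with TMM in edgeR 4.0.16, and DESeq2 1.42.0 size factors were an alternative. Levels were compared as log2(CPM + 1), so that differences of genes with low levels come out too small. The score change used a pseudocount of 1. Named genes were the 12 of highest score, those with a peak of at least 10, the strongest peaks of each region, abundant genes without an FL peak, and the 3 highest and lowest levels in each line. Functions were tested on simulated data. The members, lists and comparisons were chosen with earlier results of these data known. Single-end input libraries were not used here, nor were iCLIP reads, so the iCLIP depth is unknown here.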

Additional observations from a re-analysis of the deposited data

How the results depend on the processing

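No paired analysis was possible because each peak list pools its replicates and each line has 1 input library. Of 217 recomputed values for 38 results, 199 stayed within the counting interval or within 1.5 times the count, 18 moved and none changed sign. With scores above 3 alone, genes with a peak numbered 16, 16 and 20 in FL, ΔNTR and ΔCTR, with no gap left between FL and ΔNTR, peaks 36, 39 and 40 in FL, ΔNTR and ΔCTR, score per 1000 counts 1.86, 1.66 and 2.54, and the share of FL peaks overlapped by ΔCTR 50%. With 3'UTR before CDS, the coding share was 29.9%, 32.9% and 28.2%. Without PSMC3IP and PSME3IP1, chosen after seeing the data, FL held 0.332% of the score and 2.07 per 1000 counts, both below ΔNTR at 0.344% and 2.3, so the order of FL and ΔNTR turned round. At 1.5-fold, the counts of lower genes were 0 in ΔNTR and 0 in ΔCTR. With no filter on low levels, 1 gene was higher in ΔNTR and 1 lower in ΔNTD. Medians of level differences kept their sign under all 3 scalings, which shifted the median of all genes by no more than 0.03. Weak peaks and low counts limit single genes: most member peaks scored under 5.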
